A study of Mus musculus with 4 samples.

Results

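The lymphoid priming genes described here are Dntt, Rag1, Rag2, Ltb, Cd27 and Ly6d, 6 of the 20207 genes in the deposited tables, taken by their gene symbols. They were measured in LSK cells of the mouse fetal liver at E14.5. These cells lack lineage markers, carry Sca-1 and Kit on their surface and include hematopoietic stem cells and multipotent progenitors. The embryos were wild-type or Brpf1-null, and the Brpf1-null library is also called the mutant library below. Brpf1 encodes a chromatin reader of MYST acetyltransferase complexes. The labels describe 2 samples per genotype, arranged as 2 pairs, each a pool of about 10000 LSK cells from 4 embryos of its genotype. The labels name neither how Brpf1 was deleted nor in which cells. The tables of both pairs held identical values for every gene, so they were read as 1 library per genotype. No difference below has a replicate check, and no p-values were computed.

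Lymphoid priming is the low-level transcription of lymphocyte genes in progenitors that still keep myeloid potential. RAG1 and RAG2 together form the recombinase that cuts antigen receptor genes, and TdT, the product of Dntt, adds untemplated bases at the cut ends. Lymphotoxin beta, encoded by Ltb, is a membrane ligand of the TNF family that signals to stromal cells through its receptor LTBR. CD27 is a TNF-family receptor present on multipotent progenitors before they commit, and Ly6D is a surface protein that marks the B-cell-biased part of the common lymphoid progenitors. Fetal lymphoid precursors are known to carry little Dntt compared with adult ones.

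The priming genes split. The recombinase genes Rag1 and Rag2 and the surface marker gene Ly6d were 5.75-fold to 23.1-fold lower in the Brpf1-null library, while Cd27, by far the most abundant of the 6, was nearly level. Ltb and Dntt were below 1 RPKM in both libraries, resting on few reads. RPKM scale reads by transcript length and by library size, so levels can be set side by side between genes and between libraries, but only approximately. They do not correct for a different make-up of the RNA in the libraries, and the authors' transcript lengths are not known. Log2 changes below compare (mutant RPKM + 1) with (wild-type RPKM + 1), a scale on which the change of low genes is understated, and folds are plain RPKM ratios. Where a pair of RPKM values is given, the wild-type value comes first. Ranges in brackets after a fold are 95% counting intervals from read numbers estimated out of the RPKM. They cover counting error only, and neither the spread between pools nor PCR copies. In such bulk RNA, fewer cells of a type and less RNA per cell cannot be told apart.

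**Figure D1:**
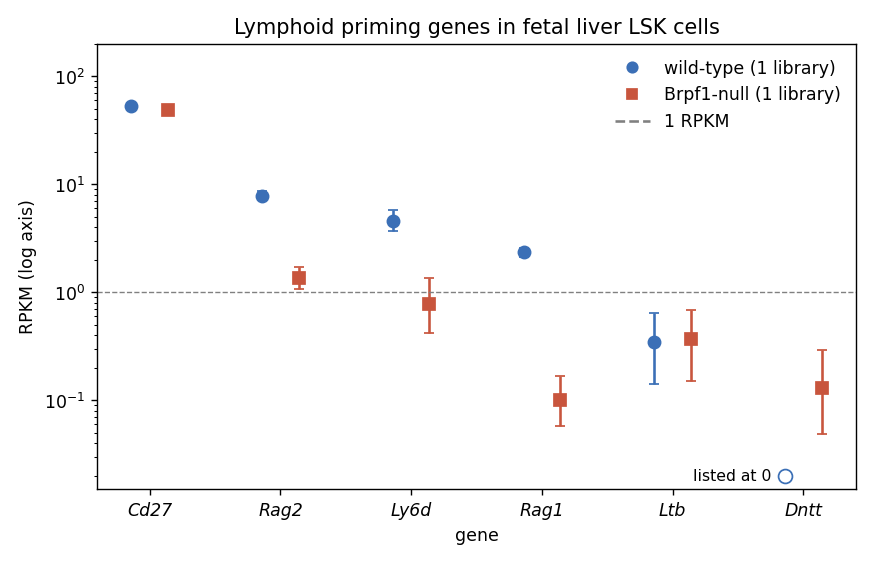
RPKM (log axis) of the 6 lymphoid priming genes in the wild-type library (circles) and the Brpf1-null library (squares), with 95% exact Poisson counting intervals as bars; the dashed line marks 1 RPKM. Rag2, Ly6d and Rag1 sit clearly lower in the Brpf1-null library, Cd27 is at 53.0 and 48.6 RPKM, and the open circle shows that Dntt was listed at 0 in wild-type.

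The libraries held about 23585637 reads (wild-type) and 22177373 reads (mutant), estimated from how low values are spaced. Brpf1 itself was at 2.59 RPKM (wild-type) and 2.15 RPKM (mutant), and such a value, taken across the gene, cannot resolve a deleted part. The genes behind the sort were present in both libraries: Kit was at 25.6 and 21.3 RPKM, and Ly6a, which encodes Sca-1, at 10.6 and 9.51 RPKM.

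Of the 6 priming genes, 4 averaged 1 RPKM or more across the libraries and were kept for counts, namely Rag1, Rag2, Ly6d and Cd27. Of these 4, 3 were lower in the mutant library by 1.5-fold or more with the pseudocount, 0 were higher to that extent and 1 lay between these bounds. Over all 9380 genes kept, 9.42% were lower and 14.1% higher by 1.5-fold. Higher genes were 59.9% of those past 1.5-fold with the deposited scaling and 44.4% after centring on the library medians. The median log2 change was −1.63 for the 4 kept priming genes and 0.04 for all genes kept. Rag1 and Ly6d were below 1 RPKM in the mutant library and passed the filter only through wild-type. The count and median of the 4 therefore partly follow from the filter. Without it, 3 of the 6 were lower and 0 higher, beside 1080 and 1439 of all 20207 genes. Ltb and Dntt had log2 changes of 0.02 and 0.18. Among the 4 kept, the counting interval excluded 1 for the same 3 genes, lower in each case. Dntt, below the filter, had an interval above 1, from about 0 and 6 reads. Of the 9258 genes with a read estimate, 30.4% met this criterion in the lower and 37.4% in the higher direction.

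Rag1, the catalytic subunit of the recombinase, was at 2.34 RPKM (wild-type) and 0.101 RPKM (mutant), from about 365 and 15 reads. It was 23.1-fold lower (13.7 to 41.3), a log2 change of −1.60. Rag2, its essential partner, was at 7.85 and 1.37 RPKM. It was 5.75-fold lower (4.53 to 7.37), a log2 change of −1.90. The counting intervals of the Rag1 and Rag2 folds did not overlap, and the fold was larger for Rag1. Per length, Rag2 exceeded Rag1 by 3.35 times in wild-type and by 13.5 times in the mutant. Among all genes kept, ranked from the most negative log2 change, Rag2 stood 64th and Rag1 111th.

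Both recombinase genes lie next to each other on chromosome 2 on opposite strands. The RPKM ratios of Traf6 and B230118H07Rik, measured around them, lay within 1.5-fold. Traf6, which encodes an adaptor of innate immune receptors and is the next protein-coding gene beyond Rag1, had 1.49 RPKM (wild-type) and 1.13 RPKM (mutant), and its log2 change was −0.23. It was 1.32-fold lower (1.07 to 1.64), an interval that excluded 1 and reached past 1.5-fold. Gm10800, the next protein-coding gene beyond Rag2, had no value. B230118H07Rik, a gene whose span overlaps both Rag1 and Rag2, had 9.02 and 10.4 RPKM in the same order, and its log2 change was 0.19. Whether the authors' counting used strand is not given in the sources used here, so reads in shared stretches could have been given to either gene.

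The promoters of Rag1 and Rag2 are shown because these neighbours were both lower but by different folds, and that of Cd27 because it is the priming gene that stayed level. Each run is the 250 bases before the RefSeq start, 5′ to 3′ on the gene's own strand, in the GRCm38.p6 build: chr2:101649533-101649782 (minus strand) for Rag1, chr2:101624462-101624711 (plus strand) for Rag2 and chr6:125237028-125237277 (minus strand) for Cd27. Capitals mark matches, on either strand, to the E boxes CAGGTG and CAGCTG, which E proteins bind, to the Ikaros motif TGGGAA and to the TATA box TATAAA.
Rag1: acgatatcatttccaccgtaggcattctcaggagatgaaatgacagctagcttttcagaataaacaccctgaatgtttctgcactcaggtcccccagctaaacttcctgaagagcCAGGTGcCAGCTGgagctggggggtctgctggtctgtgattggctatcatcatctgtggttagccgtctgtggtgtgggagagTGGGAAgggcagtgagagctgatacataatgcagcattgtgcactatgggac
Rag2: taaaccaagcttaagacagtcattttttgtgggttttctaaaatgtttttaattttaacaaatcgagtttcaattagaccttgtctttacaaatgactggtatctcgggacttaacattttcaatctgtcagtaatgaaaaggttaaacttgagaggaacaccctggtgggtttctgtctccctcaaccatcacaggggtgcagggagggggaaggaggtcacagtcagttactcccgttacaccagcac
Cd27: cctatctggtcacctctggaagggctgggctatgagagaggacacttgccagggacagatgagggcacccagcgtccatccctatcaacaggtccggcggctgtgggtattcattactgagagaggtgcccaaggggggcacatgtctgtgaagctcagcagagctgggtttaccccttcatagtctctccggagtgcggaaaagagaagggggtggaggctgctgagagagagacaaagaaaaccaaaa
The Rag1 window held CAGGTG starting 135 bases before the start, CAGCTG at 128 bases and TGGGAA at 52 bases. The Rag2 and Cd27 windows held 0 bases in any of the 4 motifs, and so did that of Dntt, while the Ltb window held CAGGTG at 66 bases. Over all 32851 promoter windows of the same length in the table, 17.2% held CAGGTG, 13.0% CAGCTG, 21.6% TGGGAA and 12.4% TATAAA, each on either strand, and the motifs do not overlap in Rag1. A match here is a description of letters, not of binding. Of the 6 genes, 5 had a promoter in the table.

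Dntt, the gene for the polymerase that diversifies receptor junctions, was listed at 0 in wild-type and at 0.130 RPKM in the mutant, from about 6 reads. No fold is given against a listed 0. On these few reads the counting interval of Dntt ran from 1.25-fold higher in the mutant library, with no upper bound. The wild-type library thus listed Rag1 and Rag2 well above 1 RPKM beside a Dntt value of 0. A neighbour of Dntt on chromosome 19, Blnk, which encodes an adaptor of B-cell receptor signalling, had 8.43 and 2.12 RPKM, 3.97-fold lower (3.15 to 5.08). Opalin, on the other side, was listed at 0 in both libraries.

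Ly6d was at 4.59 RPKM (wild-type) and 0.781 RPKM (mutant), from about 81 and 13 reads. It was 5.87-fold lower (3.24 to 11.5), a log2 change of −1.65. The interval overlaps that of Rag2, and the ratio of Rag2 to Ly6d was 1.71 (wild-type) and 1.75 (mutant). Its neighbours on chromosome 15, Lynx1 and D730001G18Rik, were listed at 0 in both libraries.

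Cd27 was at 53.0 RPKM (wild-type) and 48.6 RPKM (mutant), from about 1040 and 897 reads. It was 1.09-fold lower (0.996 to 1.19), a log2 change of −0.12, and with the longest annotated transcript length, which implies more reads, the interval was 1.02 to 1.16. Cd27 exceeded Rag2 by 6.75 times in wild-type and by 35.6 times in the mutant. Vamp1, whose span overlaps Cd27 on the other strand, was at 1.85 and 1.67 RPKM. Of the neighbours on chromosome 6, Tapbpl was at 12.3 and 17.8 RPKM (log2 change 0.50), and Tuba3a was listed at 0 in both libraries.

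Ltb was at 0.347 RPKM (wild-type) and 0.370 RPKM (mutant), about 8 reads in each. The ratio was 1.06-fold higher (0.348 to 3.25), so no difference was detectable at this depth. Its log2 change of 0.02 turned to −0.09 after centring each library on its median and to −0.23 after removal of a GC-content trend. Tnf, the neighbouring TNF-family gene on chromosome 17, was at 1.44 and 1.84 RPKM, and Lst1, on the other side, at 51.2 and 44.0 RPKM.

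In the wild-type library the RPKM levels ran Cd27, Rag2, Ly6d, Rag1, Ltb and Dntt from high to low, and no neighbours in that order with a value above 0 had overlapping counting intervals. In the Brpf1-null library the order was Cd27, Rag2, Ly6d, Ltb, Dntt and Rag1. There the intervals of Rag2 (1.08 to 1.70 RPKM) and Ly6d (0.420 to 1.35) overlapped, as did those of Ly6d and Ltb (0.151 to 0.688), of Ltb and Dntt (0.0487 to 0.289) and of Dntt and Rag1 (0.0573 to 0.169). Rag1 thus moved from the fourth place to the last, while Cd27 kept the first.

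Other genes of lymphoid-primed progenitors were grouped in 7 lists with 83 genes analysed. Of the 62 kept, 8 were lower by 1.5-fold, 7 were higher and 47 lay between, and the median log2 change was 0.02. The split moved with the scaling, to 10 lower and 6 higher after centring each library on its median and to 10 and 5 with the GC trend taken out. Over all genes kept the shares were 9.42% lower and 14.1% higher.

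**Figure D2:**
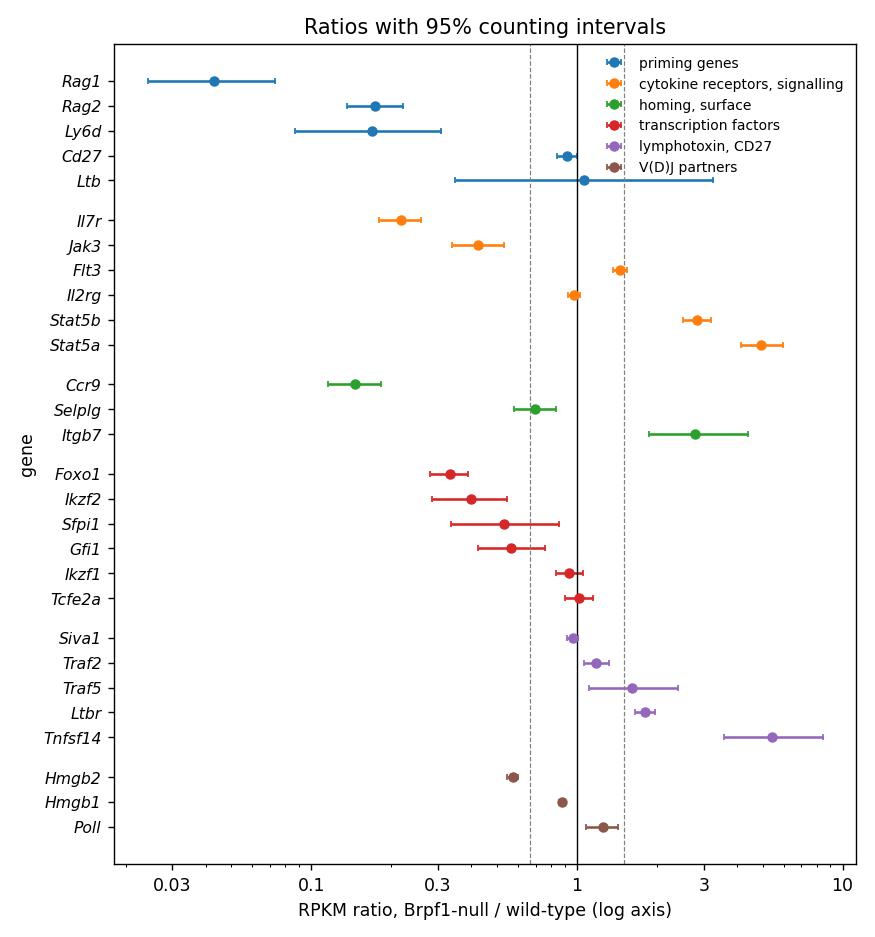
RPKM ratio of the Brpf1-null to the wild-type library (log axis) for 5 lymphoid priming genes with a value in both libraries and for 23 genes of the lymphoid lists, with 95% exact counting intervals as bars; dashed lines mark 1.5-fold in each direction. Rag1, Rag2 and Ly6d lie left of the dashed lines with Il7r, Ccr9, Jak3, Foxo1, Ikzf2, Sfpi1, Gfi1 and Hmgb2. Near 1 lie Cd27, Il2rg, Ikzf1 and Tcfe2a, among others. Stat5a, Stat5b, Itgb7, Tnfsf14, Ltbr and Traf5 lie to the right of the dashed lines. The 23 genes were picked from the lists and include no E protein inhibitor or Ly6 family gene.

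Among 8 cytokine receptor and signalling genes, all kept, 2 were lower, 2 higher and 4 within 1.5-fold. Among all genes kept, 9.42% were lower and 14.1% higher. Il7r, the receptor chain for the lymphoid growth factor IL-7, was at 8.53 RPKM (wild-type) and 1.85 RPKM (mutant), 4.61-fold lower (3.85 to 5.54). Jak3, the kinase that signals from the common gamma chain, had 3.04 and 1.29 RPKM, 2.35-fold lower (1.88 to 2.94). The gene of the common gamma chain, Il2rg, was level, at 120.6 RPKM (wild-type) and 117.6 RPKM (mutant), and was singled out after its value was seen. Flt3, the cytokine receptor that defines the lymphoid-primed part of LSK cells, was at 22.9 and 33.1 RPKM, 1.45-fold higher (1.37 to 1.54). The transcription factor genes downstream of these receptors were higher in the Brpf1-null library: Stat5a was at 1.73 and 8.56 RPKM, 4.95-fold higher (4.14 to 5.95), and Stat5b at 2.93 and 8.29 RPKM, 2.83-fold higher (2.50 to 3.20). Stat5a and Stat5b are similar paralogs, so reads could be divided unevenly between them. Flt3 and Il7r thus differed in opposite directions between the same libraries.

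The homing and surface list had 13 of 14 genes kept, with 2 lower, 1 higher and 10 within 1.5-fold. The shares among all genes kept were 9.42% lower and 14.1% higher. Ccr9, a chemokine receptor that guides progenitors to the thymus, had 9.20 and 1.35 RPKM, 6.83-fold lower (5.46 to 8.59). Itgb7, an integrin chain of gut-homing lymphocytes, was 2.79-fold higher (1.86 to 4.39), and Selplg, the P-selectin ligand gene, was at 31.4 and 21.8 RPKM, within the threshold with the pseudocount.

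Of 16 lymphoid transcription factor genes kept, 3 were lower by 1.5-fold, 0 were higher and 13 lay between, beside 9.42% lower and 14.1% higher among all genes kept, and the median log2 change was −0.12. Foxo1, an activator of Rag and Il7r transcription in B-cell precursors, had 3.08 and 1.02 RPKM, 3.01-fold lower (2.57 to 3.56). Ikzf2, which encodes Helios, was 2.50-fold lower (1.84 to 3.52), and Sfpi1, the table's name for PU.1 (Spi1), was 1.88-fold lower (1.17 to 2.97). Gfi1, a transcriptional repressor of blood progenitors, had 2.27 and 1.29 RPKM, 1.76-fold lower (1.32 to 2.35) without the pseudocount and within 1.5-fold with it (log2 change −0.52). Ikzf1, the Ikaros gene, had 21.7 and 20.2 RPKM, 1.07-fold lower (0.951 to 1.20). Tcfe2a, the table's older symbol for the E2A gene (now Tcf3), was at 8.53 and 8.69 RPKM, and its log2 change of 0.02 turned negative under other scalings: −0.09 with centring, −0.07 with quantile normalization and −0.23 with the GC trend taken out. Tcf3 is also an older symbol of Tcf7l1 in RefSeq, so the row that the table calls Tcf3 could be either gene and was not used. Of the 3 kept E protein inhibitor genes, 1 was higher and 2 within 1.5-fold: Id2 was at 50.1 and 103.3 RPKM, 2.06-fold higher (1.94 to 2.20), Id3 at 85.1 and 125.2 RPKM and Id1 at 16.7 and 21.1 RPKM.

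Of 10 kept genes of V(D)J recombination and end joining, 1 was lower, 0 higher and 9 within 1.5-fold, a lower share close to the 9.42% of all genes kept. Hmgb2, a DNA-bending cofactor of the recombinase, had 137.7 and 78.9 RPKM, 1.75-fold lower (1.66 to 1.83), and its paralog Hmgb1 was at 860.9 and 753.9 RPKM; both have processed copies in the genome, so their values are less certain. The end-joining genes Xrcc5, Xrcc4 and Nhej1 had log2 changes of −0.30, −0.47 and 0.40. Poll and Polm, the polymerases related to TdT, were at 6.90 and 8.59 RPKM and at 0.665 and 0.769 RPKM; the log2 change of Polm, 0.09, turned to −0.02 with centring and −0.19 with the GC trend taken out.

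Among the ligands, receptors and adaptors of lymphotoxin and CD27, 9 of 15 genes were kept, with 0 lower, 2 higher and 7 within 1.5-fold. Of all genes kept, 9.42% were lower and 14.1% higher. Ltbr, the receptor for lymphotoxin beta, had 15.9 and 28.6 RPKM, 1.80-fold higher (1.65 to 1.97). Tnfsf14, which encodes LIGHT, another ligand of that receptor, was at 0.638 and 3.47 RPKM, 5.44-fold higher (3.58 to 8.40). Tnfrsf14, the gene of the other LIGHT receptor, went the opposite way, at 1.47 and 0.151 RPKM, 9.71-fold lower (2.80 to 98.5) from about 24 and 2 reads; it averaged below the filter, so it is not among the counts, and was singled out after its value was seen. Lta, whose product pairs with lymphotoxin beta, was at 1.01 and 0.602 RPKM, below the filter, with an interval that included 1 (0.943 to 3.25-fold lower). The CD27 ligand gene Cd70 was listed at 0 in both libraries. The genes of CD27's intracellular partners lay within 1.5-fold with the pseudocount: Siva1 had 246.9 and 238.0 RPKM, Traf2 had 10.7 and 12.7 RPKM and Traf5 had 2.06 and 3.32 RPKM, for Traf5 1.61-fold higher (1.11 to 2.41) without the pseudocount. Tnfrsf1b, a TNF receptor gene, was at 3.04 and 4.62 RPKM.

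In the Ly6 family, 3 of 12 genes were kept, with 0 lower, 1 higher and 2 within 1.5-fold, and 6 were listed at 0 in both libraries. The shares over all genes kept were 9.42% lower and 14.1% higher. Ly6a had a log2 change of −0.14, Ly6e, at 197.8 and 214.5 RPKM, one of 0.12 that turned to 0.00 with centring and −0.06 with the GC trend taken out, and Ly6c2 was at 2.74 and 4.66 RPKM. Ly6c2 has a near-identical copy in Ly6c1, so its value is uncertain.

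**Figure D3:**
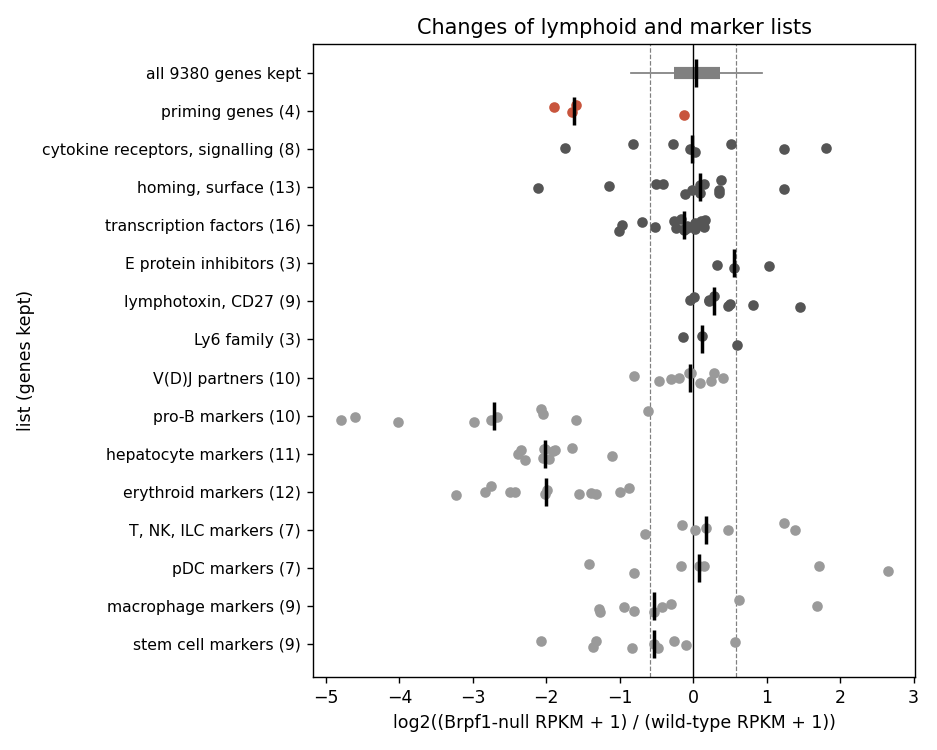
Log2 change, log2((Brpf1-null RPKM + 1)/(wild-type RPKM + 1)), of each kept gene (points) in the priming genes, the 7 other lymphoid lists and 7 cell type marker lists, with list medians as vertical bars and the number of genes in brackets; the top row gives the median, the quartiles and the 5th to 95th percentiles of all 9380 genes kept, and dashed lines mark 1.5-fold. Medians were −1.63 for the 4 kept priming genes, −2.71 for pro-B, −2.02 for hepatocyte and −2.01 for erythroid markers. Those of the other lymphoid lists run from −0.12 to 0.55. Rag1 and Ly6d were kept only through their wild-type level. Ltb and Dntt, with log2 changes of 0.02 and 0.18, were not kept, so the priming gene median partly follows from the filter.

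Markers of cell types that express the priming genes, of types outside the LSK gate and of stem cells were examined in the same libraries. The counts below stand beside 9.42% lower and 14.1% higher among all genes kept. All 10 kept pro-B cell markers were lower in the mutant library by 1.5-fold or more, with a median log2 change of −2.71, and the summed RPKM of the 12 genes analysed was 368 (wild-type) and 104 (mutant). Their log2 changes ran from −4.80 for Cd79a, at 50.6 and 0.848 RPKM, to −0.61 for Cd79b, at 119 and 77.8 RPKM. The mutant sum came mostly from Cd79b and Cd24a, the latter at 85.7 and 19.9 RPKM. Pax5 was listed at 0 in both. All 11 kept hepatocyte markers and all 12 kept erythroid markers were lower too, with summed levels of 2078 and 543 RPKM and of 658 and 102 RPKM. The part of pro-B, hepatocyte or erythroid RNA in the lower Rag1, Rag2 and Ly6d levels was not tested. Of 7 kept T, NK and innate lymphoid markers, 1 was lower and 2 higher, the summed level was 64.0 and 83.1 RPKM, and Cd3e and Gzmb were listed at 0 in both libraries. Of 7 kept markers of plasmacytoid dendritic cells, which can also carry Rag and Ly6d transcripts, 2 were lower and 2 higher. Siglech was at 2.59 and 0.338 RPKM and Cox6a2 at 34.2 and 19.3 RPKM, while Bst2 was at 6.68 and 47.1 RPKM and Irf8 at 9.24 and 32.6 RPKM. The summed level of 66.7 and 112 RPKM was higher in the mutant library through Bst2 and Irf8. Of 9 kept macrophage markers, 4 were lower and 2 higher, with a median log2 change of −0.54, and 9 of all 11 had the lower value in the mutant library. Timd4 was 5.25-fold lower (3.36 to 8.42) and Vcam1 4.11-fold lower (3.01 to 5.78). The summed level of 82.8 and 98.0 RPKM was higher in the mutant library through Csf1r, at 8.31 and 28.8 RPKM, and Cd68, at 26.9 and 41.8 RPKM. Of 9 kept stem cell markers, 4 were lower and 0 higher with the pseudocount, with a summed level of 140 and 77.4 RPKM. Of all 10, 9 had the lower value in the mutant library. The other, Fgd5, was at 1.45 and 2.63 RPKM. It was 1.81-fold higher (1.52 to 2.18) without the pseudocount and within 1.5-fold with it (log2 change 0.57).

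The genes nearest to each kept priming gene were found by Euclidean distance between log2(RPKM + 1) values, over 2 libraries. For Rag1 they were Akr1c19 (2.49 and 0.0725 RPKM, distance 0.07) and Tac2 (2.17 and 0.132 RPKM, 0.08). For Rag2 they were Rgn (7.41 and 1.32 RPKM, 0.08) and Hsd17b2 (7.60 and 1.20 RPKM, 0.12). For Ly6d they were Midn (4.46 and 0.801 RPKM, 0.04) and Pla2g12b (4.40 and 0.718 RPKM, 0.07), and for Cd27 Lin37 and Eapp, at distances of 0.01 and 0.03. With only 2 values per gene, this likeness says that the levels match and no more.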

How the data were processed

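LSK cells of wild-type and Brpf1-null E14.5 fetal livers were profiled by oligo-dT-primed RNA sequencing. Reads were aligned with TopHat to mm9, per the submitters' processing notes; the sources used here do not name the counting program, annotation, filters or any pooling of pairs. The values deposited by the authors are RPKM (pair 1) and FPKM (pair 2), per the file headers. The deposited ratio (fold change) and its log2 run wild-type over mutant, per the file headers and values, and were not used. All 20207 genes had the same values in both tables (0 wild-type and 0 Brpf1-null values differed), so the planned limma test was not possible and values were described, with n = 1 library per genotype.

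Log2 changes used a pseudocount of 1 RPKM and genes averaging 1 RPKM or more (9380 kept, 10827 removed). The ratio of library sizes was taken where most low genes had ratios of whole reads: 42.6% of 1203 genes under 0.3 RPKM did within 0.2%, against 2.58% with the ratio raised by 5%. The sizes came from genes with a single GENCODE M21 transcript length, for which 62.2% of wild-type and 64.5% of Brpf1-null values under 12 reads were whole within 0.1 read. With the sizes raised by 5%, 30.3% and 29.4% still were. Symbols were matched to lengths for 98.1% of genes, through RefSeq synonyms for 2302. Read numbers per gene are approximate, since the authors' transcript lengths are not known. Fold intervals are exact Clopper-Pearson intervals (95%) on the share of reads from the mutant library (scipy 1.17.1), and level intervals are exact Poisson intervals. The procedure was tested on simulated data. Promoters are RefSeq sequences of GRCm38.p6, another build than mm9, and were used as reference sequence only.

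The 6 genes and all lists were chosen with earlier results of these data known. Named were the 6 genes, up to 4 kept genes per other lymphoid list with the largest absolute log2 change, direct partners of the 6, Brpf1, the nearest neighbours on the chromosome and the 2 nearest genes by level; marker genes and overlapping genes outside this rule were chosen after their values were seen. Alternatives were another pseudocount, filter, scaling and call, and, added after the data were seen, removal of the median change of 10 GC-content bins. Single values of some genes in the lists are not reported here.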

Additional observations from a re-analysis of the deposited data

How the results depend on the processing

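Rag1, Rag2 and Ly6d were lower and Cd27 was lower in the Brpf1-null library under each pseudocount, scaling and GC setting run. The log2 change of Rag1 was −3.60 with a pseudocount of 0.1 RPKM and −0.52 with 5, that of Rag2 −2.44 and −1.01, and that of Ly6d −0.73 with 5; a larger pseudocount shrinks low genes by construction. Removal of the GC trend gave −0.26 for Cd27. Of the priming genes, 3 passed 1.5-fold lower under the other settings, 2 with a pseudocount of 5, and 0 when genes had to average 5 RPKM, which leaves Cd27 alone. In the 7 other lymphoid lists, the lower genes numbered 4 with a pseudocount of 5, 4 with the filter at 5 RPKM and 4 at 2-fold, against 8, and the higher genes 6, 5 and 5 in the same order, against 7. Centring gave 10 lower and 6 higher, GC removal 10 and 5, quantile normalization 8 and 7, a pseudocount of 0.1 RPKM 9 and 9, and no filter 9 and 7. Over all genes, 393 were lower and 554 higher with a pseudocount of 5, 483 and 793 with the filter at 5 RPKM, and 325 and 388 at 2-fold, against 884 and 1323. Centring moved the median log2 change from 0.04 to −0.07. Of 37 named genes outside the 6, 0 past 1.5-fold changed direction under any setting. No paired analysis was possible because the tables of both pairs hold the same values, and for that reason leaving out a replicate and the planned limma fit were not run. With 1 library per genotype, differences between pools cannot be told apart from those between genotypes, and the counts of about 8, 6, 13 and 15 reads limit what can be said of Ltb, Dntt and the Brpf1-null levels of Ly6d and Rag1.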
